A study of Mus musculus with 8 samples.

Results

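Basophil and mast cell progenitors were taken as the cells with at least 1 UMI of Ms4a2 and at least 3 UMIs of Mcpt8, Prss34 and Cpa3 together. A UMI (unique molecular identifier) marks 1 captured transcript, so that its amplified copies count as 1. The rule chose 631 of the 29891 deposited cells (2.11%), and since it used the measured levels of these 4 genes, their levels and all differences from other cells are given as descriptions without a test. The cells were c-Kit+ Lin- (KL) cells sorted from the bone marrow of female B6 mice of 3 to 4 months, depleted of CD3, CD4, CD8, CD45R, CD11b, TER119 and GR1 and profiled with droplet-based 3' libraries. Mice of both groups were born and raised free of specific pathogens. The SPF group (10 mice) stayed in a specific-pathogen-free facility, and the CVT group (10 mice) was kept for 1 month in a conventional facility with mice of that facility. These numbers of mice follow the sample labels, and a figure legend of the study gives fewer. Each group was sequenced as 4 pools of 2 or 3 mice, and the pool was the replicate. Pools 1, 2, 7 and 8 were SPF and pools 3, 4, 5 and 6 were CVT, read from the number that ends each cell's name. That mapping matches this number to the number in the sample descriptions. Pools 1 to 4 (mice 1 to 10) and pools 5 to 8 (mice 11 to 20) were treated as possible batches, with 2 pools of each group in each set.

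Basophils and mast cells are granulated effector cells of allergy and of defence against parasites. Both carry the high-affinity IgE receptor, whose alpha chain (Fcer1a) binds the antibody, whose beta chain (Ms4a2) amplifies the signal and whose gamma chain (Fcer1g) is shared with other Fc receptors. Mcpt8 and Prss34 encode serine proteases typical of mouse basophils, whereas Cpa3, a carboxypeptidase stored in granules with heparin, is prominent in mast cells and their precursors. Gata2 and C/EBP factors direct the choice between these fates in the bone marrow, and interleukin-3 expands both.

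The 250 bases before the annotated start of 5 genes that mark these cells are shown. Of these genes, 4 were used by the rule, and Fcer1a had the largest ratio among the leading genes that the rule did not use. They were read on the gene's strand from RefSeq (GRCm38.p6), in which all 5 genes were matched, and not from the build of the count files (mm9 in the submitters' processing notes). Capitals mark the words AGATAA and TGATAA on either strand, forms of the sequence that GATA factors bind.
Ms4a2 (chr19:11623720-11623969, minus strand): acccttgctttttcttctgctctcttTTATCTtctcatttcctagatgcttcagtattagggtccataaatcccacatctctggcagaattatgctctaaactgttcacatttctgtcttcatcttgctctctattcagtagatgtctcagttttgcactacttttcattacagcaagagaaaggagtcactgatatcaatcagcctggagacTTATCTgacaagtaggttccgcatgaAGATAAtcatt
Fcer1a (chr1:173227230-173227479, minus strand): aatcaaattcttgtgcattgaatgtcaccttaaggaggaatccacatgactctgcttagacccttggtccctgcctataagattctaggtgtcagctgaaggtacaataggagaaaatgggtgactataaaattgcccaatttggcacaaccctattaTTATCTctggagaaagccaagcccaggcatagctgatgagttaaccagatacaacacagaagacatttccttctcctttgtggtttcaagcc
Cpa3 (chr3:20242182-20242431, minus strand): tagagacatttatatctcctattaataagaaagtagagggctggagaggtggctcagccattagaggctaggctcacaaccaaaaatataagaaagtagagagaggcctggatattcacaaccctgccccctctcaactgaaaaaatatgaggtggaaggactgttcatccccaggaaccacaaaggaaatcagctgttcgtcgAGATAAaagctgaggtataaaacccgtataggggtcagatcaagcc
Mcpt8 (chr14:56085198-56085447, minus strand): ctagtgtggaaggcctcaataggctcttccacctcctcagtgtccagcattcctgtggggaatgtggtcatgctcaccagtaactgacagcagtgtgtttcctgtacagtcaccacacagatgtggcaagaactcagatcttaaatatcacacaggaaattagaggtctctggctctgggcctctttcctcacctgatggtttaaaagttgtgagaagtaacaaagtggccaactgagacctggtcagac
Prss34 (chr17:25298144-25298393, plus strand): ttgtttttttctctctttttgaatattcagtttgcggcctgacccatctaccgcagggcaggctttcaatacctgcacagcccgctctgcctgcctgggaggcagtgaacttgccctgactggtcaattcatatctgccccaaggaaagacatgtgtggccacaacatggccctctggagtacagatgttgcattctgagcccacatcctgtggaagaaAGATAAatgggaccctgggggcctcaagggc
Of the 5 windows, 4 held at least 1 of the 2 words, against 16.6% of the 32851 promoter windows of the same length. The 5 genes were picked, and any part of GATA factors in their levels was not tested. The Ms4a2 window held 3 matches, of which the nearest began 11 bases before the start. The Cpa3 word began 46 bases, the Prss34 word 31 bases and the Fcer1a word 92 bases before it. The Mcpt8 window held no match, which says only that these letters were not there.

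The pools held between 1888 and 4845 cells and between 19041749 and 59812346 UMIs, and each contributed between 34 (SPF pool 1) and 117 (SPF pool 8) progenitors. The progenitors had a median of 8287 UMIs and 2446 genes, and the median per pool ranged from 7998.5 to 9410 UMIs in CVT and from 7117 to 9095 in SPF pools. A total of 522 cell barcodes occurred in more than 1 pool, 16 of them among the progenitors, and 1 barcode was held by progenitors of different pools. These were kept as separate cells. Free RNA was read from cells that should lack the genes. Of 4272 erythroid progenitors (Car1 at least 3 UMIs and Ermap at least 1, median 18253 UMIs), 4.61% held a Mcpt8 UMI, 1.99% a Prss34 UMI and 1.01% an Fcer1a UMI, against 32.0%, 13.3% and 37.2% of the progenitors. With every cell thinned to 2759 UMIs, the shares were 0.632%, 0.257% and 0.117% in the erythroid cells and 20%, 8.72% and 25.2% in the progenitors. Mcpt8 was not particular to the progenitors. Among Mpo and Cebpa positive progenitors (Mpo at least 5 UMIs and Cebpa at least 1, 5257 cells, median 15340 UMIs), 35.9% held a Mcpt8 UMI and 10.4% did after thinning. Prss34 and Fcer1a UMIs were held by 1.94% and 0.761% of them before thinning.

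The 4 genes of the rule were spread over the cells in very different ways. Ms4a2 had a median of 3 UMIs per progenitor and at most 19, and Cpa3 a median of 7 and at most 66, with 624 of 631 cells holding at least 1. Mcpt8 was found in 202 progenitors and Prss34 in 84, and 7 and 6 cells, respectively, held at least 50% of their UMIs. The highest cell held 654 UMIs of Mcpt8, and for Prss34 the highest held 837. Progenitors held 94.0% of all Prss34 UMIs of the series but 43.5% of those of Mcpt8. Of the other cells, 3580 held a Mcpt8 UMI and 44 held 10 or more. Of the 84 cells with Prss34, 72.6% also had Mcpt8, against 25.8% of the progenitors without Prss34. In counts per 1e6 UMIs (CPM) of the summed progenitors of a pool, Cpa3 ranged from 983 to 1170 and Ms4a2 from 377 to 570. Mcpt8 ranged from 128 to 2590 CPM and Prss34 from 106 to 3000 CPM, with their lowest values in SPF pool 1 and CVT pool 3, so their sums turned on a few cells.

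**Figure D1:**
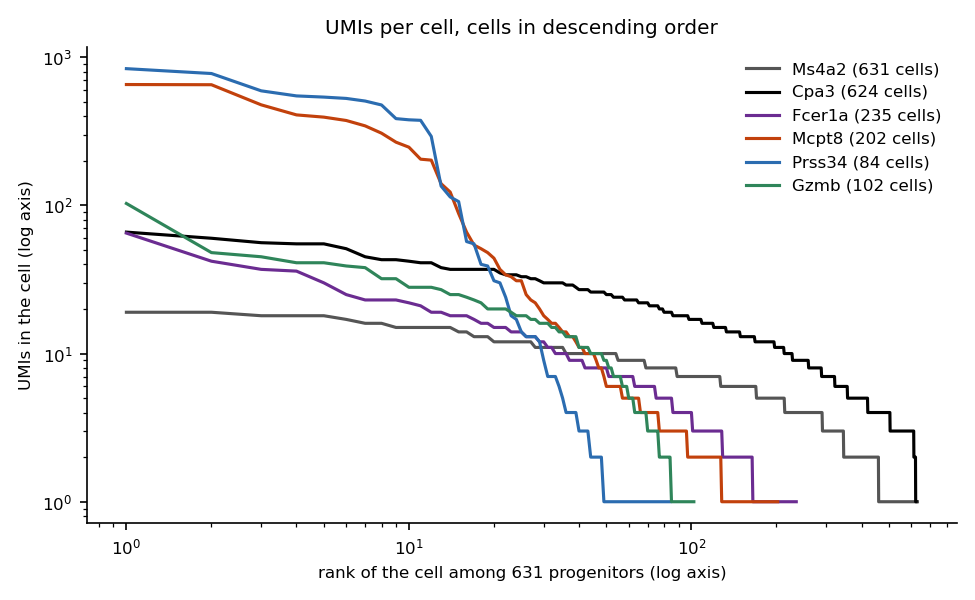
UMIs of 6 genes in single progenitors, with cells in descending order of that gene (both axes log10) and only cells with at least 1 UMI drawn. Mcpt8 and Prss34 start at 654 and 837 UMIs and drop steeply, whereas Cpa3 and Ms4a2 decline slowly over 624 and 631 cells.

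Cells near the limits of the rule were compared by 6 genes. The 102 progenitors with exactly 3 UMIs of Mcpt8, Prss34 and Cpa3 had 631 CPM of Lmo4, 343 CPM of Gata2 and 61.4 CPM of Fcer1a. The 134 cells just outside, with Ms4a2 but 2 such UMIs, had 548, 366 and 63.6 CPM of the same genes. Across that limit, Mpo measured 902 CPM inside and 568 CPM outside, Hdc 105 and 67.4 CPM and Car1 327 and 542 CPM. Cells outside on the other side differed: the 1665 cells with 3 or more such UMIs and no Ms4a2 had 112 CPM of Lmo4, 75.9 CPM of Gata2 and 3010 CPM of Mpo, the myeloperoxidase of neutrophil precursors.

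The label was checked with marker lists that held none of the 4 genes. A gene was counted as higher when its level in every pool of progenitors exceeded that in every pool of all other cells, which held for 5.65% of 7523 genes, and as lower in the reverse case, which held for 4.15%. Of 11 basophil markers with a mean of at least 10 CPM in progenitors or other cells, 9 were higher and 0 lower. Of 5 such mast cell markers, 4 were higher, namely Gzmb, Itgb7, Slc18a2 and Cyp11a1, and Kit was not. No progenitor held a UMI of Tpsb2, Tpsab1, Mcpt1, Mcpt2, Mcpt4, Mrgprb1, Mrgprb2 or Tph1, genes of mature mast cells, and 0 of 631 cells allows a share of up to 0.475% with a UMI. Intervals and limits of this kind cover counting error only. Among markers of other cells, of 13 erythroid genes 8 were lower, of 9 monocyte and dendritic genes 5 were lower, and of 7 lymphoid genes 3 were lower. Of 13 genes of late granulocytes, 0 were higher and 0 lower, and their summed level ranged from 1088 to 17730 CPM in progenitors and from 6300 to 49840 CPM in other cells. Of 9 megakaryocyte genes 2 were higher (Itga2b, at 92.9 to 134 CPM against 25.8 to 38.7 CPM, and Cd9) and 1 lower. Of 8 stem cell genes 1 was higher (Ifitm1) and 1 lower. The azurophil list held granule genes and other genes of neutrophil and monocyte progenitors. Nkg7 was higher as the 1 of 7 genes of that list and the 1 measured T and NK cell gene. Of the 7 genes of the azurophil list 0 were lower. Their summed level overlapped, at 4347 to 8062 CPM in progenitors and 5393 to 8836 CPM in other cells. The basophil list and part of the mast cell list thus fitted the name, and the listed genes of mature mast cells were absent or not higher.

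Among genes that the rule did not use and that at least 10% of progenitors held, Fcer1a had the largest ratio, with a median over pools of 67.4 times its level in other cells (1 CPM added to both). It measured 115, 102, 375 and 139 CPM in SPF pools 1, 2, 7 and 8 and 178, 318, 396 and 248 CPM in CVT pools 3, 4, 5 and 6, against at most 3.97 CPM in the other cells of any pool. Gzmb (granzyme B, a cytotoxic granule protease also made by mast cells) followed at 66.7 times and Rnase12 at 47.4 times. Lmo4, a LIM-domain cofactor of transcription, was found in 91.1% of progenitors and ranged from 665 to 1020 CPM against 50.9 to 73.1 CPM. Csrp3 was found in 78.4% of them at 402 to 742 CPM against 38.8 to 70.4 CPM. The 20 leading genes also held Il6 (9.07 to 33.7 CPM), a cytokine of activated basophils and mast cells, Csf1 (12.2 to 43.0 CPM), the growth factor of macrophages, Fgf3, Scin, Homer2, Rab19, Cyp11a1 and Alox5. Ikzf2, a zinc-finger factor of the Ikaros family, ranked below them but was present in 84.8% of cells at 260 to 351 CPM against 31.8 to 49.4 CPM.

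**Figure D2:**
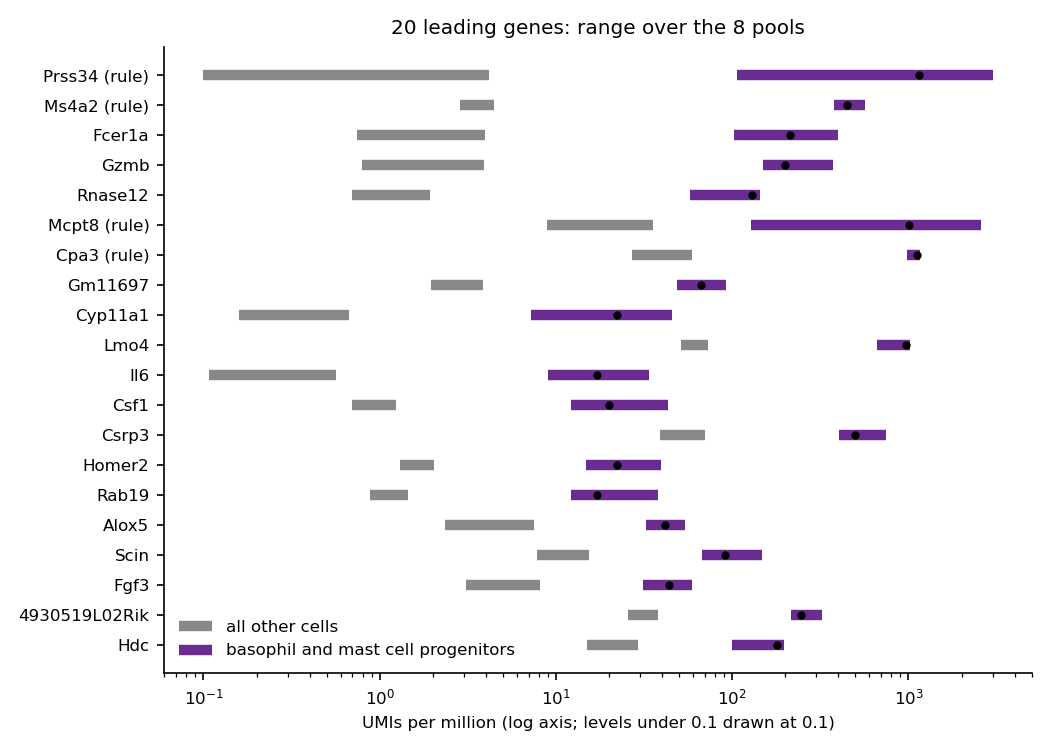
Range over the 8 pools of the 20 genes with the largest ratio between progenitors (purple, dot at the median) and all other cells (grey), in CPM on a log axis. The ranges of all 20 genes are separate, and the 4 genes marked as rule were used to choose the cells.

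Among genes with a mean of at least 100 CPM in other cells, several of those lowest in progenitors belong to neighbouring lineages. Car1, an erythroid carbonic anhydrase, ranged from 78.1 to 230 CPM against 681 to 1400 CPM, Irf8, a factor of monocytes and dendritic cells, from 7.59 to 51.9 CPM against 138 to 222 CPM, and Pf4, of megakaryocytes, from 12.1 to 98.7 CPM against 101 to 284 CPM. Mt2, a metallothionein, had the largest median difference (log2 ratio -4.06) and ranged from 1.48 to 14.5 CPM against 57.7 to 178 CPM.

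Granule and mediator genes were described next. Of 19 mediator genes, 9 were higher and 0 lower than in other cells. Hdc, which makes histamine, was found in 63.5% of progenitors and measured 99.7, 162, 197 and 179 CPM in SPF and 181, 186, 175 and 183 CPM in CVT pools. The groups overlapped, and SPF pool 1 was lowest. Slc18a2, which loads histamine into granules, measured between 66.5 and 91.9 CPM against 7.78 to 15.2 CPM in other cells. Srgn, the proteoglycan core of the granule matrix, was found in 100% of cells at 1910 to 2300 CPM against 739 to 870 CPM. Cd63, a granule membrane protein, ranged from 808 to 1320 CPM against 155 to 263 CPM, and Alox5, which starts leukotriene synthesis, from 32.3 to 54.0 CPM against 2.36 to 7.47 CPM. Ltc4s, a later enzyme of that pathway, overlapped at 3.24 to 21.2 CPM against 6.37 to 10.4 CPM.

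Of the IgE receptor chains and their signalling partners, 3 of 12 measured genes were higher. Fcer1g was found in 85.3% of progenitors, but at 305 to 608 CPM it overlapped the 220 to 447 CPM of other cells. The kinases Lyn (31.1 to 51.4 CPM) and Syk (25.2 to 37.7 CPM) and the adaptor Lat (21.2 to 68.4 CPM) also overlapped other cells. The adaptors Lat2 and Gab2 and the phospholipase Plcg1 did not overlap other cells, with Lat2 at 106 to 154 CPM against 49.0 to 62.9 CPM, though Gab2 stayed under the mean of 10 CPM that the count asked for.

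Among cytokine receptors, 6 of 17 genes were higher and 4 lower. Il3ra, the interleukin-3 receptor alpha chain, ranged from 35.6 to 72.7 CPM against 21.9 to 25.4 CPM, and Csf2rb, its signalling chain, from 39.3 to 92.1 CPM against 10.4 to 15.6 CPM. Il1rl1, the receptor for interleukin-33, ranged from 28.2 to 52.5 CPM against 6.75 to 10.2 CPM. Il5ra, of eosinophils, was found in 0.475% of progenitors. Kit, the sorted receptor, ranged from 68.9 to 116 CPM and overlapped other cells (56.6 to 86.6 CPM).

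Of 28 transcription factors, 9 were higher and 2 lower. Gata2 was found in 89.1% of progenitors, ranged from 298 to 368 CPM and lay close to the Gata2 and Apoe positive progenitors (Gata2 at least 1 and Apoe at least 2 UMIs, no Car1 or Pf4, 1619 cells), which had 238 to 301 CPM after a choice that used Gata2. Gata1, the erythroid and mast cell factor, ranged from 44.3 to 87.6 CPM and overlapped other cells. Cebpa, of granulocytes and basophils, ranged from 68.4 to 130 CPM against 30.4 to 46.3 CPM. Runx1 ranged from 134 to 213 CPM against 55.9 to 67.0 CPM. Mitf, a factor of mature mast cells, was found in 3.8% of cells.

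Against the Gata2 and Apoe positive progenitors, 1.93% of 7630 genes were higher and 1.28% lower in every pool. Of the basophil list 7 of 11 genes were higher, of the mast cell list 3 of 5, of the mediators 8 of 19 and of the transcription factors 5 of 28. Meis1, a stem and progenitor factor, was lower at 65.8 to 121 CPM against 129 to 195 CPM, as was Car2 at 222 to 453 CPM against 495 to 900 CPM.

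The rule could be met by Cpa3 alone, and 406 of the 631 progenitors (64.3%) had no UMI of Mcpt8 or Prss34. A further 118 had 1 or 2 such UMIs and 107 (17%) had 3 or more. Their median UMI totals were 7763.5, 8867 and 9457, so depth moved with the class. Between the class with 3 or more and that with none, 0.568% of 7574 genes were higher in every pool and 0.779% lower, with as few as 4 cells in a pool. Cd63 (1170 to 2150 CPM against 593 to 1070 CPM), Hdc (203 to 483 CPM against 80.8 to 187 CPM), Fcer1a (192 to 1420 CPM against 34.6 to 181 CPM) and Rnase12 (191 to 324 CPM against 30.8 to 84.8 CPM) were higher. Alox5 was also higher, at 50.4 to 141 CPM against 19.2 to 42.8 CPM. Of 7 genes of the azurophil list, 3 were higher, namely Mpo (1440 to 4050 CPM against 510 to 1260 CPM), Ctsg (2110 to 4300 CPM against 308 to 713 CPM) and Ms4a3 (456 to 963 CPM against 119 to 286 CPM). Kit (29.5 to 53.7 CPM against 83.2 to 139 CPM), Car2 (48.0 to 121 CPM against 237 to 508 CPM), Meis1 (17.7 to 71.9 CPM against 75.5 to 141 CPM), Gfi1b and Pf4 were lower. Gata2 and Lmo4 overlapped between the classes.

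**Figure D3:**
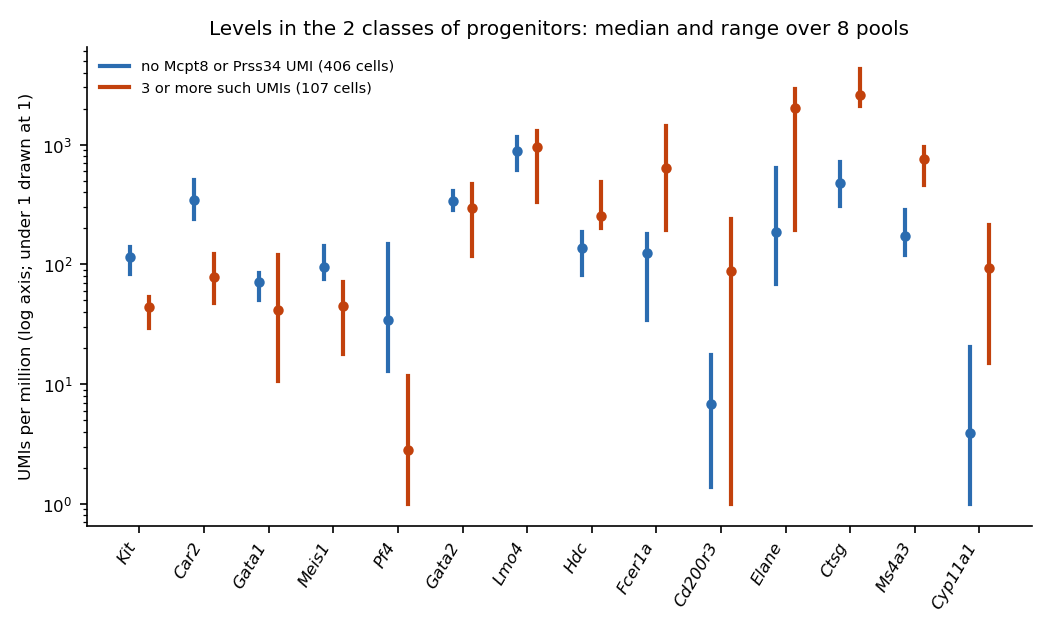
Levels of 14 genes in progenitors without Mcpt8 and Prss34 UMIs (blue) and with 3 or more (red), as the median and range over 8 pools in CPM on a log axis. Kit, Car2, Meis1 and Pf4 were lower and Hdc, Fcer1a, Ctsg and Ms4a3 higher in every pool of the red class, whereas Gata2 and Lmo4 overlap.

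A small set of cells carried other granule genes. Gzmb was found in 102 progenitors, with 18 cells holding at least 50% of its UMIs. Of these 102 cells 69.6% held Itgb7, an integrin chain that homes mast cell precursors to the gut, against 21.0% of the progenitors without Gzmb, and 9.8% held the mast cell chymase Cma1, against 0.189%. Mcpt8 was found in 18.6% of the cells with Gzmb and in 34.6% of those without it. Prg2, the major basic protein of eosinophils, was found in 12 progenitors, and 1 cell held 61.4% of its UMIs. Of those 12 cells 10 held Mcpt8, 6 held Prg3 and 4 held Epx, the eosinophil peroxidase. These are shares of cells within pooled samples, given as descriptions.

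The first comparison between housing groups asked whether co-housing went with a different share of these progenitors. They made up 1.80%, 2.26%, 2.28% and 2.58% of the cells of SPF pools 1, 2, 7 and 8 and 1.94%, 2.18%, 1.77% and 2.0% of those of CVT pools 3 to 6. The exact (Clopper-Pearson) 95% confidence intervals ran from 1.25% to 2.51% in SPF pool 1 and from 2.14% to 3.09% in SPF pool 8. The means were 2.23% ± 0.322 (SD, n = 4) in SPF and 1.97% ± 0.167 in CVT mice, and the groups overlapped (difference -0.257 percentage points, exact permutation test, two-sided p = 0.229, 0.278 for regroupings within pool sets). Within pools 1 to 4 the means were 2.03% in SPF and 2.06% in CVT, and within pools 5 to 8 they were 2.43% and 1.89%.

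The makeup of the progenitors was read by the classes. The classes were drawn from Mcpt8 and Prss34, which the rule used, so their shares are given as a description without a test. The share without Mcpt8 and Prss34 UMIs was 79.4%, 78.2%, 66.0% and 70.1% in SPF pools 1, 2, 7 and 8 and 62.8%, 58.2%, 55.8% and 51.2% in CVT pools 3 to 6. Every CVT pool lay below every SPF pool. The means were 73.4% ± 6.46 (SD, n = 4) and 57.0% ± 4.83, a difference of -16.4 percentage points. Within pools 1 to 4 the means were 78.8% in SPF and 60.5% in CVT, and within pools 5 to 8 they were 68.0% and 53.5%. With cells thinned and the rule applied again, 235 progenitors were left and the difference was -16.7 points. As a share of all cells, the progenitors without these UMIs made up 1.63% ± 0.189 in SPF and 1.13% ± 0.139 in CVT pools, also without overlap. Those with 3 or more made up 0.278% ± 0.0973 and 0.418% ± 0.0898, and the groups overlapped.

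Other readings of the same cells were added after the data were seen, 8 shares in all, of which 5 rest on Mcpt8 and Prss34 and are again descriptions. Progenitors with 3 or more Mcpt8 and Prss34 UMIs made up 12.4% ± 3.69 in SPF and 21.1% ± 3.30 in CVT pools, a difference of 8.68 points that was 2.68 with members kept and cells thinned. Progenitors with any Mcpt8 UMI made up 23.4% ± 3.43 and 39.2% ± 5.16 without overlap, whereas those with 10 or more made up 7.02% ± 4.01 and 8.04% ± 4.61. The shares with Prss34 overlapped between the groups, at 10.3% ± 4.55 and 16.1% ± 3.49 with any UMI and 5.66% ± 2.71 and 8.44% ± 3.23 with 3 or more. Among erythroid progenitors, the share with a Mcpt8 UMI ranged from 0 to 6.54% in SPF and from 4.19% to 6.97% in CVT pools, with the groups apart after thinning (0 to 0.394% and 0.546% to 1.18%). Mcpt8 in all other cells averaged 16.6 CPM ± 5.94 in SPF and 27.1 CPM ± 7.53 in CVT pools. The part of free Mcpt8 RNA in these shares was not tested.

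The other 3 shares used genes outside the rule, and their p-values were adjusted over all 8 shares. Fcer1a UMIs were held by 32.4%, 20.7%, 29.8% and 31.6% of the progenitors in SPF pools 1, 2, 7 and 8 and by 41.5%, 56.0%, 46.8% and 34.5% in CVT pools 3 to 6. Every CVT pool lay above every SPF pool. The means were 28.6% ± 5.39 in SPF and 44.7% ± 9.07 in CVT pools (exact permutation test, two-sided p = 0.0286, the smallest that 4 against 4 pools can give, adjusted 0.0572), and the adjusted value missed 0.05. Regroupings within pool sets gave p = 0.0556, the smallest that these allow by the exact test. With cells thinned, the difference of 16.1 points was 10.3 (exact permutation p = 0.0571). Erythroid progenitors with an Fcer1a UMI ranged from 0 to 1.38% in SPF and from 0.626% to 1.64% in CVT pools. Gzmb lay the other way, with a UMI in 19.1% ± 7.36 of SPF and 12.7% ± 2.95 of CVT progenitors, and the groups overlapped (exact permutation p = 0.171). An Elane UMI was held by 46.4% ± 11.6 of SPF and 69.4% ± 9.26 of CVT progenitors (exact permutation p = 0.0286, adjusted 0.0572). In erythroid progenitors, which are deeper, that share ranged from 40.5% to 67.7% in SPF and from 56.8% to 87.2% in CVT pools. With cells thinned, the mean shares were 22.6% in SPF and 42.5% in CVT pools for basophil and mast cell progenitors. For erythroid progenitors they were 13.7% and 24.3%. The part of free Elane RNA in this share was not tested.

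**Figure D4:**
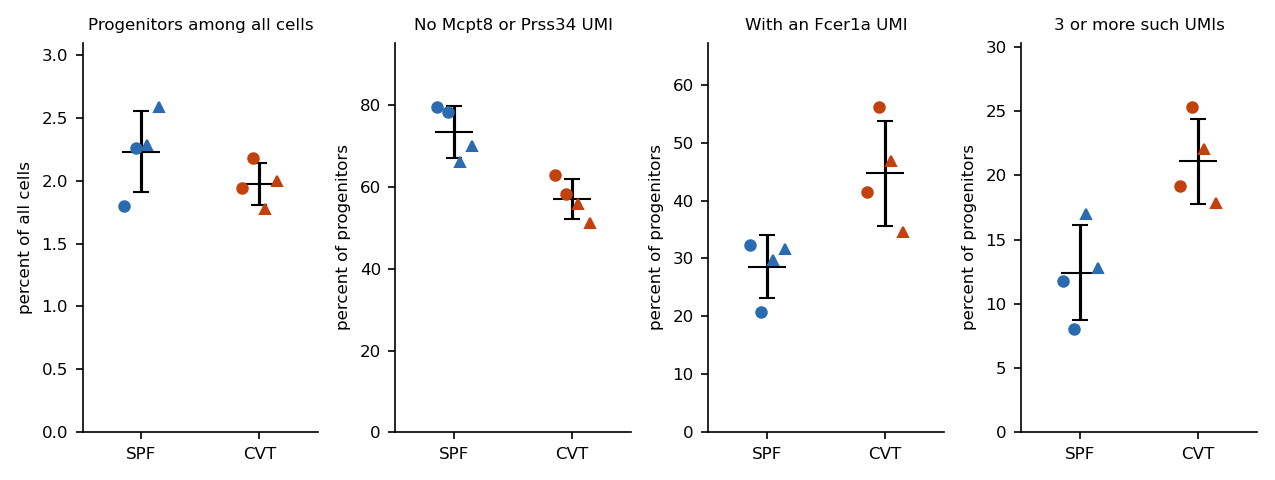
Share of progenitors among all cells of a pool, and, among progenitors, the shares with no Mcpt8 or Prss34 UMI, with an Fcer1a UMI and with 3 or more Mcpt8 and Prss34 UMIs, in percent. Points are pools (circles pools 1 to 4, triangles pools 5 to 8), and lines with bars are means and SD of 4 pools, and only the first panel's groups overlap.

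Gene expression was then compared between CVT and SPF mice in the summed UMIs of the progenitors of each pool (edgeR quasi-likelihood test, 6332 genes, Benjamini-Hochberg adjusted p under 0.05). The test called 6 genes higher in CVT mice (0.0948% of the genes) and 0 lower (0%), while an unadjusted p under 0.05 was reached by 261 genes above and 154 below 0. DESeq2 called 9 genes higher, 5 of them shared, and 0 lower. All 6 were genes of early neutrophil and monocyte precursors. Of them 5, Elane, Mpo, Prtn3, Ctsg and Ms4a3, were among the 7 tested genes of the azurophil list, which is not made of granule proteins alone. Ly6c2, a surface protein of monocytic precursors, was the other. Every CVT pool exceeded every SPF pool for all 6, which held for 1.07% of the genes tested, while the reverse held for 3.36%.

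Elane, the neutrophil elastase, measured 248, 432, 172 and 355 CPM in SPF pools 1, 2, 7 and 8 and 1220, 647, 1090 and 896 CPM in CVT pools 3 to 6. Its log2 fold change was 1.72 (SE 0.193, edgeR adjusted p = 7.63e-05), with means of 302 CPM ± 115 (SD, n = 4) and 963 CPM ± 250. A single cell held between 23.6% and 39.7% of a pool's Elane UMIs. Ly6c2 rose from 28.0 CPM ± 14.9 to 101 CPM ± 36.5 (log2 fold change 1.70, SE 0.267, edgeR adjusted p = 0.00384). Mpo rose from 1080 CPM ± 93.6 to 1520 CPM ± 215 (log2 fold change 0.58, edgeR adjusted p = 0.00384) and Ctsg, cathepsin G, from 842 CPM ± 55.1 to 1200 CPM ± 169 (log2 fold change 0.58). Prtn3, proteinase 3, rose from 645 CPM ± 125 to 986 CPM ± 119 (log2 fold change 0.69, edgeR adjusted p = 0.00411) and Ms4a3, a marker of granulocyte and monocyte progenitors, from 255 CPM ± 37.0 to 388 CPM ± 39.5 (log2 fold change 0.69, edgeR adjusted p = 0.00384). Without CVT pool 3, Elane alone was called, and without the progenitor with the most Elane UMIs of each pool, Elane, Mpo and Ms4a3 were (0.048% of the genes tested).

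These 6 genes were also read in the other cells of the same pools, since their RNA is abundant in neutrophil precursors. Elane in erythroid progenitors averaged 81.2 CPM ± 49.5 in SPF and 141 CPM ± 57.4 in CVT pools, and the groups overlapped, whereas Ly6c2 did not overlap there (10.9 to 23.7 CPM and 26.8 to 37.7 CPM). In the B-lineage precursors (88 cells) Elane averaged 68.3 CPM ± 34.3 and 111 CPM ± 37.0. In erythroid progenitors the log2 fold changes of the 6 genes ranged from 0.73 (Elane) to 0.91 (Mpo), with 0 of 10417 genes called by edgeR and all 6 at an unadjusted p under 0.05. The CVT difference of Elane was larger in basophil and mast cell progenitors than in erythroid progenitors by 0.995 on the log2 scale (SE 0.211, edgeR adjusted p = 0.0181), in a fit that called 0.221% of 9044 genes larger and 0.0111% smaller. For Mpo, Ctsg, Prtn3 and Ms4a3 the difference was -0.34, -0.27, -0.11 and -0.05, for Ly6c2 0.95 (edgeR adjusted p = 0.143), and none of these 5 passed the threshold. Against the Gata2 and Apoe positive progenitors, none of the 6 passed either (Elane 0.81, edgeR adjusted p = 0.915), in a fit that called 0.0255% of 7852 genes larger. The fit against Pf4 and Itga2b positive progenitors called 0.0261% of 7667 genes larger and 0.013% smaller, again with none of the 6. In the Pf4 and Itga2b positive progenitors the log2 fold changes were Mpo 1.41, Ctsg 1.1, Prtn3 1.02, Ly6c2 1.69, Elane 1.33 and Ms4a3 0.57. In the Gata2 and Apoe positive progenitors they ranged from 0.38 (Prtn3) to 1.17 (Ly6c2). Within these 2 populations edgeR called 0 of 8380 and 0 of 8432 genes, respectively. Against Mpo and Cebpa positive progenitors, whose rule itself used Mpo, 0.0524% of 9541 genes were called larger. These were Elane, Ly6c2, Prtn3, Mpo and Ctsg. The fit compares ratios, and those cells held more of each of these RNAs. Elane measured 3590 CPM ± 161 in SPF and 4150 CPM ± 300 in CVT pools there, and Ly6c2 459 CPM ± 52.8 and 588 CPM ± 33.0. Of the 6 genes, Mpo, Ctsg and Ms4a3 were also higher in every pool of the class with 3 or more Mcpt8 and Prss34 UMIs. The ranges of Elane, Ly6c2 and Prtn3 over the pools overlapped between the classes. Within each pool, Elane and Ly6c2 were higher in that class than in the class without such UMIs, though Elane only narrowly in SPF pool 1 (192 and 185 CPM). Prtn3 was higher within every pool but SPF pool 7. What part free RNA and the makeup by class had in these calls was not tested.

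**Figure D5:**
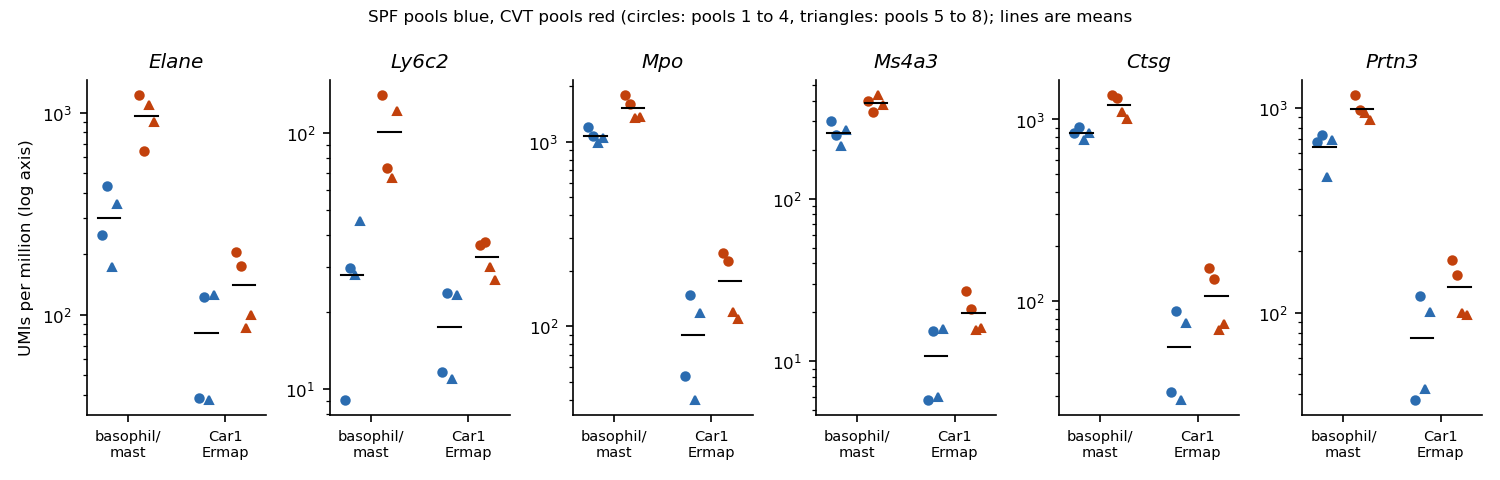
Levels of the 6 called genes in basophil and mast cell progenitors and in Car1 and Ermap positive erythroid progenitors of the same pools, in CPM on log axes that differ between panels. In basophil and mast cell progenitors every CVT pool (red) lies above every SPF pool (blue), and the erythroid cells sit at lower levels, although their Ly6c2 and Elane overlap those of SPF progenitors.

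Fits within the classes and in other populations were added after the calls in all progenitors were seen. The class without Mcpt8 and Prss34 UMIs was drawn from genes of the rule. It held a mean of 73.4% of SPF and 57.0% of CVT progenitors. Within the 406 progenitors of this class, edgeR called 2 of 4623 genes (0.0433%), both higher in CVT mice. These were Elane (log2 fold change 2.08, edgeR adjusted p = 0.000178) and Fcer1a (log2 fold change 1.23, SE 0.212, edgeR adjusted p = 0.00963). Fcer1a averaged 70.2 CPM ± 36.3 in SPF and 150 CPM ± 23.3 in CVT pools of this class, without overlap. In the 107 progenitors with 3 or more such UMIs its log2 fold change was -0.07 and edgeR called 0 of 1959 genes. In the Gata2 and Apoe positive progenitors, Fcer1a ranged from 1.21 to 10.9 CPM in SPF and from 13.9 to 16.7 CPM in CVT pools (log2 fold change 1.15, SE 0.312, edgeR adjusted p = 0.504). Over all progenitors Fcer1a overlapped between the groups, since SPF pool 7 measured 375 CPM (log2 fold change 0.78, SE 0.290, edgeR adjusted p = 0.588). The difference of the effect between the classes was not tested.

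The other genes chosen by rule did not pass the threshold in the comparison of all 8 pools. Lower in CVT mice by unadjusted p were Hjurp, which loads centromeric histone (83.6 CPM ± 21.8 in SPF, 48.0 CPM ± 7.64 in CVT, edgeR adjusted p = 0.383), the citrate synthase Cs (57.4 CPM ± 2.75 and 37.4 CPM ± 4.93, edgeR adjusted p = 0.45), Gzmb (290 CPM ± 98.6 and 177 CPM ± 27.9, edgeR adjusted p = 0.48) and the SUMO-activating Sae1 (131 CPM ± 10.6 and 94.2 CPM ± 6.82, edgeR adjusted p = 0.522). Kit averaged 104 CPM ± 9.36 in SPF and 80.3 CPM ± 13.6 in CVT pools, and its pools did not overlap (log2 fold change -0.29, edgeR adjusted p = 0.767). Cebpa had a log2 fold change of 0.46 (SE 0.152, edgeR adjusted p = 0.578), Csf2rb 0.38 (SE 0.201), Srgn 0.16 (SE 0.080) and Hdc 0.23 (SE 0.137). Gata2, at 330 CPM ± 21.0 and 326 CPM ± 30.1, had a log2 fold change of 0.07 (SE 0.0995). Il1rl1 had -0.25 (SE 0.185), Il3ra -0.08 (SE 0.175), Gata1 -0.08 (SE 0.179), Ccl9, a myeloid chemokine, 0.16 (SE 0.134), Fcer1g 0.17 (SE 0.180), Cd200r3, an activating receptor of basophils, 0.59 (SE 0.468) and Itgb7 0.03 (SE 0.209). Prg2 had -1.0 with an SE of 0.904. Rnase12, from 83.3 CPM ± 31.5 to 135 CPM ± 6.34, stood just outside (log2 fold change 0.81, edgeR adjusted p = 0.058). With pool set as a block Rnase12 was called (edgeR adjusted p = 0.00985), as it was without SPF pool 7 (edgeR adjusted p = 0.000716).

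The lists were read by their counts beside the median log2 fold change of -0.0033 over the 6328 genes tested that the rule did not use, 49.4% of which were above 0. Of 10 basophil genes tested 7 were above 0 (median 0.14), of 5 mast cell genes 2 (median -0.22) and of 11 genes of the IgE receptor pathway 3 (median -0.06), with 0 called in each by edgeR. The cytokine receptors (4 of 9 above 0), transcription factors (12 of 27), chemokines and cytokines (4 of 7), interferon-stimulated genes (6 of 10), MHC class I genes (7 of 12), Toll-like receptor pathway (2 of 5), survival genes (3 of 6) and heat shock genes (3 of 8) had medians between -0.08 and 0.16 and 0 calls. Of 16 mediator genes 13 were above 0 (median 0.16), and Ctsg was the 1 called. All 7 genes of the azurophil list were above 0 (median 0.58), with 5 called.

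Other lists leaned one way without a call. All 13 AP-1 and immediate early genes were above 0 (median 0.46, lowest edgeR adjusted p = 0.243), and their summed level ranged from 1009 to 1654 CPM in SPF and from 744.8 to 3135 CPM in CVT pools. Fosb among them measured 207 and 289 CPM in CVT pools 3 and 4 but 63.8 and 40.6 CPM in CVT pools 5 and 6, against 57.4, 120, 50.6 and 77.3 CPM in SPF pools 1, 2, 7 and 8. Jun, Ier2 and Fosb were among the genes with the lowest p for a difference between the pool sets (edgeR adjusted p from 0.104 to 0.151), with 0 of 6332 genes called. All 12 late granulocyte genes were above 0 (median 1.25, lowest edgeR adjusted p = 0.522). Without CVT pool 4, Camp, Lcn2, Ngp, S100a8 and Wfdc21 of this list were called higher by edgeR. S100a8 among them ranged from 293 to 2640 CPM in SPF and from 473 to 7960 CPM in CVT progenitors, and from 370 to 1000 and 158 to 992 CPM in erythroid progenitors. Of 9 erythroid genes 2 were above 0 and of 7 megakaryocyte genes 1 (medians -0.14 and -0.08). Of 4 monocyte and dendritic genes 3, of 2 lymphoid genes 1, of 5 stem cell genes 3, of 1 T and NK cell gene 1 and of 2 eosinophil genes 0 were above 0, with 0 called. Of 12 genes encoded by mitochondria 11 were above 0 (median 0.17, 0 called).

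Cell cycle genes showed no difference past the threshold. Genes of S phase took 0.202% ± 0.0121 of the progenitors' UMIs in SPF and 0.191% ± 0.0195 in CVT pools (exact permutation p = 0.343, adjusted over both lists 0.371). Genes of G2 and mitosis took 0.143% ± 0.0283 and 0.127% ± 0.0177 (exact permutation p = 0.371, adjusted 0.371). Of the S-phase genes 13 of 18 and of the G2 and mitosis genes 10 of 20 had a log2 fold change below 0.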

How the data were processed

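Each library was made from 1 pool of mice with a droplet-based 3' kit (version 2 chemistry). Per the submitters' processing notes the authors used Cell Ranger with mm9, and they deposited UMI counts per gene and cell with no normalization. The files held 29891 cells and 27998 genes, and the cell total the study states differs slightly. Counts per 1e6 UMIs (CPM) were computed from UMIs summed per pool, with no filter on cells. CVT and SPF pools were compared with edgeR 4.0.16 (quasi-likelihood test, TMM, filterByExpr, no block; Benjamini-Hochberg adjustment), with DESeq2 1.42.0 as an alternative, and shares with an exact permutation test over 70 regroupings of 8 pools. In simulated data with 200 genes changed 2-fold among 6332, edgeR recovered 79.5%, with 9 false calls. Those counts were drawn with the fitted trend of dispersion, so the figures do not cover genes whose UMIs sat in a few cells. Pools hold separate mice, but p-values measure the spread between pools only.

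Members, populations and lists were chosen with earlier results of these data known. The text names the 4 genes of the rule, 18 fixed genes, 4 genes per direction of the housing comparison (filled by unadjusted p among genes of at least 30 CPM), the 20 leading genes and up to 4 genes per list. Other genes it names, among them the lowest genes and those that separate the classes, were chosen after their values were seen. Doublets were kept, since Scrublet marked 39 cells (0.13%) and had not worked. Of the progenitors, 45 (7.13%) were among the 4% of cells with the highest doublet scores in their pool. Without those cells edgeR called the same 6 genes of 6063 tested, with a log2 fold change of 1.58 for Elane. Cells were thinned to 2759 UMIs, the smallest total of any cell. The test planned for the share of cells without Mcpt8 and Prss34 UMIs is not reported, since the rule used these genes.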

Additional observations from a re-analysis of the deposited data

Results flagged for a closer look

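Of 72 groups of 4 pools examined, 3 held a pool whose gap to its neighbour exceeded Dixon's 95% critical value, while chance flags about 5% of groups. Fcer1a in SPF pool 7 measured 375 CPM, with the next SPF pool at 139 CPM. Prg2 in CVT pool 6 measured 792 CPM, with the next at 75.6 CPM. Srgn in CVT pool 5 measured 2290 CPM, with the next at 2140 CPM.

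The difference between CVT and SPF pools was itself compared between populations, as a log2 ratio whatever the level of a gene in each. For Elane it was larger in basophil and mast cell progenitors than in erythroid progenitors by 0.995 on the log2 scale (edgeR adjusted p = 0.0181). Against Mpo and Cebpa positive progenitors (Mpo at least 5 UMIs and Cebpa at least 1, 5257 cells, a rule that itself used Mpo), it was larger by 1.42 for Elane (edgeR adjusted p = 4.3e-07), 1.28 for Ly6c2 (0.00419), 0.513 for Prtn3 (0.000152), 0.429 for Mpo (2.64e-07) and 0.399 for Ctsg (0.000303), the 5 genes called larger of 9541 tested (0.0524%).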

How the results depend on the processing

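Of the shares with no overlap between the groups, those with no Mcpt8 or Prss34 UMI, 3 or more such UMIs and an Fcer1a UMI were recomputed, and each kept its direction. Regrouping within pool sets changes only the p-value, so the differences of -16.4, 8.68 and 16.1 points stayed the same by design. For Fcer1a the exact permutation p within sets was 0.0556, the smallest allowed. The mean share with no such UMI was 78.8% in SPF and 60.5% in CVT within pools 1 to 4. Within pools 5 to 8 it was 68.0% and 53.5%. After thinning the 3 differences were -16.7, 2.68 and 10.3 points. Without 1 pool at a time they ranged from -18.9 to -14.4, from 7.22 to 10.2 and from 12.3 to 19.5 points. The readings of 3 or more and of Fcer1a were chosen after seeing the data.

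The 6 genes called higher became 51 with no filter on low counts (7 lower in place of 0), 12 with pool set as a block, 1 (Elane) with the stricter rule (298 cells), 1 (Elane) in thinned cells and 3 without the progenitor with the most Elane UMIs of each pool, a setting added after seeing the data. Without 1 pool at a time they numbered 1 to 14: Elane alone without CVT pool 3, 14 without CVT pool 4 (among them Camp, Hp, Ifitm6, Lcn2, Ngp, S100a8 and Wfdc21), 10 without CVT pool 6 and 11 without SPF pool 7. Those lower numbered 0 to 2, and the 2 were Gzmb and Id2, without SPF pool 8. Elane was called in each of these settings and with DESeq2, but not among the 107 progenitors with 3 or more Mcpt8 and Prss34 UMIs alone. Without SPF pool 7, Fcer1a (log2 fold change 1.33) and Rnase12 (1.03) were called, and with the block Rnase12 (0.84). Uncalled genes that changed sign were Fcer1g (-0.00977 thinned), Gata1 (0.144 thinned, -0.189 to 0.0409 without 1 pool), Itgb7 (-0.167 stricter rule, -0.0854 without the 4% highest doublet scores, -0.127 thinned, -0.126 to 0.12 without 1 pool), Cd200r3 (-0.0023 to 1.11), Il3ra (-0.189 to 0.0656) and Prg2 (-3.97 to 0.425). Of 533 alternative values, 466 were counted as unchanged. For genes and shares this meant the same direction and side of the threshold, and for numbers of called genes a value within a set ratio. The gene values cover 26 genes, of which 6 were called, so the tally does not measure how stable those calls were. The causes were not tested. Removal of called doublets was not run. No paired analysis was possible because the groups share no replicate numbers.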

Other observations

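Among the 20 genes whose CVT difference was larger in basophil and mast cell progenitors than in erythroid progenitors were late granulocyte genes (Camp, Lcn2, Ltf, Ngp, S100a8 and S100a9) and genes high in the progenitors themselves (Cd63 and Csrp3). Cd63 exceeded the erythroid difference by 0.62 (SE 0.110) and Csrp3 by 0.86 (SE 0.147) on the log2 scale, although none of these 8 genes was called within the progenitors. These genes were chosen after their values were seen.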
